A study of Mus musculus with 2 samples.

Results

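The 10 genes described here are immediate early genes: Fos, Fosb, Fosl1, Jun, Junb, Egr1, Atf3, Ier2, Ier3 and Dusp1. They were taken by symbol from the 32285 genes of the count tables, and all 10 were found and counted in both libraries. The rule uses no measured value, but the genes were chosen with earlier results of these data known. Gene expression was measured by droplet single-cell RNA sequencing (10x Genomics, 3′ end) in GL261, a mouse glioma cell line widely used as a model of glioblastoma. The adherent library held cells grown attached to flasks in serum-containing DMEM and collected by trypsin at near confluency. The neurosphere library held cells grown for 12 days as floating spheres in the same medium with Epidermal Growth Factor and Fibroblast Growth Factor, each at 20 ng/ml, and B-27 supplement, then broken up through narrowing pipette tips. The sample labels give a trypsin step for the spheres before that, which the study's methods do not mention, so whether the enzyme step was shared is not certain. Both were frozen in medium with DMSO before library construction. There was 1 library per condition, so no difference between the cultures has a replicate check and no p-value is given. Growth factors, B-27, sphere growth, time in culture, mechanical break-up and library preparation cannot be told apart.

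After removal of low-quality cells, 5051 of 5764 adherent and 4276 of 4951 neurosphere cells remained. They held 46290996 and 64943938 unique molecular identifiers (UMIs, each standing for 1 captured transcript), with medians of 8260 and 13198.5 UMIs per cell. Levels are given in CPM, UMIs of a gene scaled to 1000000 UMIs of its library, with exact 95% Poisson intervals that cover counting error only. UMIs were counted from the 3′ end and are not per length, so levels are compared between cultures and not between genes. Of 8 neural progenitor and glial markers, all had at least 50 UMIs over both libraries, 1 was over 2-fold higher (Olig2) and 2 over 2-fold lower (Vim and Slc1a3) in neurosphere cells, and the list summed to 6537 and 3008 CPM. Sox2 was at 208.9 and 180.2 CPM, while Gfap, which marks astrocytes, had 30 adherent and 27 neurosphere UMIs.

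Immediate early genes are transcribed within minutes of a signal, without new protein synthesis, and their mRNAs are short-lived. Growth factor receptors acting through ERK and the serum response factor, stress kinases, and the handling of cells themselves all switch them on. Fos and Jun proteins pair to form AP-1, a transcription factor that carries the signal to later genes in glioma as in other dividing cells, and other members, such as Dusp1, shut the kinases off again.

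The 10 genes did not differ in 1 direction between the cultures. Together they made up 863.9 CPM (855.5 to 872.4) of the adherent and 901.8 CPM (894.5 to 909.2) of the neurosphere library, a log2 ratio of 0.06 (0.04 to 0.08). This near-equal sum was made of opposite parts. Fos, Fosb, Jun, Egr1 and Ier2 together were at 386.1 CPM in the adherent and 737.5 CPM in the neurosphere library (log2 ratio 0.93), while Fosl1, Junb, Atf3, Ier3 and Dusp1 together were at 477.8 and 164.3 CPM (log2 ratio -1.54). Of the UMIs of the 10 genes, Ier3 alone gave 30.1% in adherent but 5.05% in neurosphere cells, and Egr1 gave 4.26% and 15.2%.

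**Figure D1:**
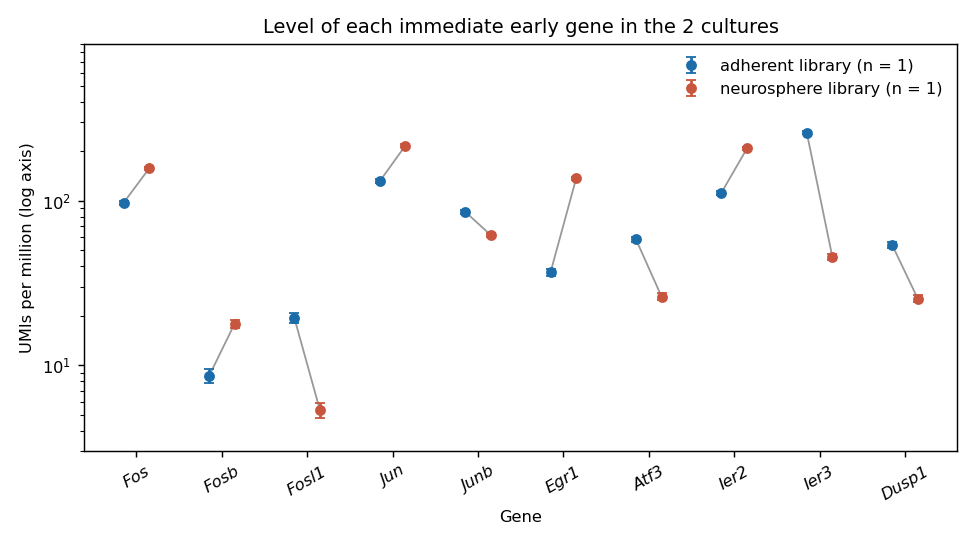
Level of each of the 10 genes in the adherent (blue) and neurosphere (red) library, in CPM on a log axis; points are the 1 library of each culture, bars are exact 95% Poisson intervals, and grey lines join the cultures. Fos, Fosb, Jun, Egr1 and Ier2 were higher and Fosl1, Junb, Atf3, Ier3 and Dusp1 lower in the neurosphere library.

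A total of 2 of the 10 genes, Egr1 and Fosb, were over 2-fold higher in neurosphere cells, where 21.7% of the 14654 genes with at least 50 UMIs were. Over 2-fold lower were 4 of the 10, Fosl1, Atf3, Ier3 and Dusp1, against 11.7% of all genes. The median log2 ratio was 0.11 over the 10 genes and 0.32 over all genes. The log2 ratios of Fos (0.70), Jun (0.72) and Ier2 (0.90) were above those of 67.0%, 68.1% and 74.99% of all genes. The median size of the log2 ratio, whatever its sign, was 1.07 over the 10 genes and 0.68 over all genes. Each of the 10 kept its direction under all 15 alternative settings. Settings that only rescale the totals shift every log2 ratio by at most 0.30. That is less than the smallest of the 10 (Junb, -0.47), so these could turn no gene. The direction of the sum was not kept: its log2 ratio was -0.24 under TMM scaling, which lowers every log2 ratio by 0.30, and -0.19 under median-of-ratios scaling, which lowers every one by 0.25.

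**Figure D2:**
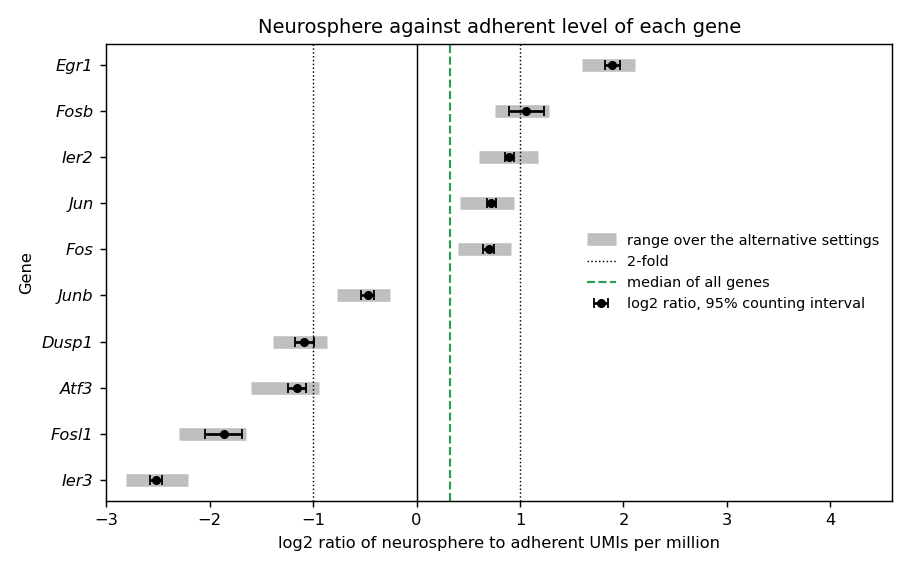
log2 ratio of the neurosphere to the adherent level for each gene (points, with exact 95% counting intervals), over the range of the 15 alternative settings (grey bars). Dotted lines mark 2-fold and the green line the median of all genes at 0.32; Egr1 lies highest at 1.89 and Ier3 lowest at -2.51, and no grey bar crosses 0.

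Promoter sequences were available for 7 of the 10 genes (RefSeq, GRCm38.p6), and 4 are shown, for 2 genes higher and 2 genes lower in neurosphere cells. Each is the 250 bases before the transcription start on the gene's own strand. Capitals mark TGACG, the core of the cyclic AMP response element that CREB and ATF proteins bind, its full form TGACGTCA, and TGACATCA, a variant bound by Jun with ATF2, on either strand.
Fos, chr12:85473640-85473889, plus strand: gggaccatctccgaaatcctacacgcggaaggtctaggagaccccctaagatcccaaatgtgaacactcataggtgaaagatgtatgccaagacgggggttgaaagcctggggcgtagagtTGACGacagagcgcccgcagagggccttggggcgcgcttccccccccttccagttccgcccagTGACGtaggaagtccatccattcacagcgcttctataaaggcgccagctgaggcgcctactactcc
Jun, chr4:95052223-95052472, minus strand: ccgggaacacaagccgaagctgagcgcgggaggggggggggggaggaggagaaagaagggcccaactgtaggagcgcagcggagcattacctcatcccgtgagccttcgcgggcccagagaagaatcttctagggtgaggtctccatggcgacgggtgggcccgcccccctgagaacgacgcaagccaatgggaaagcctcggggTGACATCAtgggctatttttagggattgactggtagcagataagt
Dusp1, chr17:26508473-26508722, minus strand: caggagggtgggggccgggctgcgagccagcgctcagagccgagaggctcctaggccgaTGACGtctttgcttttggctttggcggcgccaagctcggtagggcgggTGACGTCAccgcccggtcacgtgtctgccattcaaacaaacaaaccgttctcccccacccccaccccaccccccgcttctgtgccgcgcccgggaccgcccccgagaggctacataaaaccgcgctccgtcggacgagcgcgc
Ier3, chr17:35821463-35821712, plus strand: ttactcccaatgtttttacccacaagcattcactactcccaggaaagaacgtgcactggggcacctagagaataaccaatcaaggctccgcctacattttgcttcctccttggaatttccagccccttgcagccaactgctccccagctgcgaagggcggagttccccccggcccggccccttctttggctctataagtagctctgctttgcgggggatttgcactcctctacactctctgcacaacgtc
TGACG or its reverse complement was found in 5 of the 7 (Fos, Fosb, Junb, Atf3 and Dusp1) and in 17.8% of all 32851 promoters of this length. The Fos sequence holds it beginning 129 and 66 bases before the start, and its TATAAA, found in 12.4% of all promoters and in no other of the 7, begins 33 bases before. The full TGACGTCA was found in Dusp1 alone, beginning 143 bases before the start, against 1.55% of all promoters, and it overlaps the core on both strands. TGACATCA was found in Jun alone, 45 bases before the start, against 2.93% of all. Neither TGACTCA, the AP-1 site (4.46% of all promoters), nor GCGTGGGCG, the Egr1 site (0.536%), nor the CArG box that serum response factor binds (1.47%) was found in any of the 7 windows. Sites further from the start, and the promoters of Fosl1, Egr1 and Ier2, were not searched, so these genes cannot be said to lack such sites. The TGACG core did not separate the genes by direction, since it was found in Fos and Fosb, which were higher, and in Junb, Atf3 and Dusp1, which were lower. The other motifs that matched did so in 1 gene each. A match of letters is a description of the sequence, not evidence of binding.

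Among the Fos family, whose proteins cannot pair with each other and need a Jun partner, members differed in opposite directions. Fos (chr12:85473890-85477273, 4 exons) had 4505 UMIs in adherent and 10238 in neurosphere cells, or 97.3 and 157.6 CPM. It was 1.62-fold higher in neurosphere cells, a log2 ratio of 0.70 (0.65 to 0.75). Its relative Fosb (chr7:19302696-19310051), whose truncated form accumulates under lasting stimulation in neurons, was scarce, with 397 and 1161 UMIs (8.58 and 17.9 CPM), and lay 2.08-fold higher in neurosphere cells. The Fosb log2 ratio of 1.06 had an interval of 0.89 to 1.23, which spans 2-fold, so its place among the genes past 2-fold rests on the threshold. Fosl1 (chr19:5447547-5455946), which encodes Fra-1, the late and longer-lived Fos protein sustained by ERK activity and tied to invasive growth, went the other way. It had 896 adherent and 345 neurosphere UMIs, 19.4 and 5.31 CPM, and was 3.64-fold lower in neurosphere cells (log2 ratio -1.87, -2.05 to -1.68). Fosl1 overlaps Ccdc85b on the other strand, which had 4736 and 1969 UMIs. The strand setting of the counting was not given in the sources used here, so reads of such partners cannot be told apart.

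The Jun family was also divided. Jun (chr4:95049034-95052222, 1 exon), the main activating partner of Fos, had 6093 and 14088 UMIs, or 131.6 CPM (adherent) and 216.9 CPM (neurosphere). That is 1.65-fold higher in neurosphere cells (log2 ratio 0.72, 0.68 to 0.76). Junb (chr8:84974484-84978718, 1 exon), a weaker activator that can restrain Jun, had 3973 and 4018 UMIs, nearly equal in number, but from libraries of unequal size. On the CPM scale it was at 85.8 and 61.9, 1.39-fold lower in neurosphere cells (log2 ratio -0.47, -0.54 to -0.41), the smallest difference of the 10. Junb overlaps Prdx2 on the other strand, a highly expressed gene with 42544 and 32497 UMIs, and Jun overlaps Junos, with 231 and 459. Jund, the third Jun gene and not one of the 10, had 358.9 CPM against 1029 CPM in the neurosphere library (log2 ratio 1.52).

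Egr1, a zinc finger transcription factor that serum response factor and ERK signalling switch on, differed most among the genes that were higher. The gene lies on chromosome 18. It had 1705 adherent and 8888 neurosphere UMIs, or 36.8 CPM (35.1 to 38.6) and 136.9 CPM (134.0 to 139.7). It was 3.72-fold higher in neurosphere cells (log2 ratio 1.89, 1.82 to 1.97), above 92.5% of all genes tested. Its UMIs were seen in 20.4% of the adherent cells against 57.8% of the neurosphere cells. With every cell thinned to 5000 UMIs, these shares became 14.0% and 38.0%.

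Atf3 (chr1:191170296-191218039), a stress-induced member of the ATF family that mostly represses transcription, was lower in neurosphere cells. It had 2698 and 1697 UMIs, 58.3 and 26.1 CPM, a 2.23-fold difference (log2 ratio -1.16, -1.25 to -1.07). Its share of cells with a UMI was 32.2% (adherent) and 16.5% (neurosphere), or 21.4% and 7.63% after thinning. The remaining neurosphere Atf3 was gathered in few cells: the 1% of cells richest in it (42 cells) held 35.8% of its UMIs, where 50 adherent cells held 12.5%. Without those cells in each library, the Atf3 log2 ratio was -1.60.

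Ier2 and Ier3 share a naming scheme but not a direction. Ier2 (chr8:84661331-84662852, 1 exon), a nuclear protein tied to transcription and cell motility, had 5172 and 13521 UMIs, 111.7 and 208.2 CPM, and was 1.86-fold higher in neurosphere cells (log2 ratio 0.90, 0.85 to 0.94). Ier3 (chr17:35821684-35822923, 2 exons), which modulates cell survival and prolongs ERK signalling, was the gene of the 10 that differed most. It had 12054 adherent UMIs but 2960 neurosphere UMIs, 260.4 and 45.6 CPM, and was 5.71-fold lower in neurosphere cells (log2 ratio -2.51, -2.57 to -2.46). Only 3.21% of all genes had a lower log2 ratio than Ier3. As a share of cells, Ier3 was seen in 68.6% (adherent) and 32.0% (neurosphere), or 56.5% and 15.5% after thinning.

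Dusp1 (annotated span chr17:26505590-26562128), a nuclear phosphatase that inactivates p38, JNK and ERK, was also lower in neurosphere cells. It had 2498 and 1652 UMIs, 54.0 and 25.4 CPM, a 2.12-fold difference (log2 ratio -1.09, -1.18 to -0.99). As for Fosb, the interval reaches 2-fold. The span of Dusp1 overlaps Ergic1 on the other strand, which had 3818 and 3667 UMIs. It also overlaps AC122252.1, another of the counted genes, on its own strand. Among 9 other phosphatases of MAP kinases, none was over 2-fold higher and 4 were over 2-fold lower, with a median log2 ratio of -0.37, where 21.7% and 11.7% of all genes were. Of these, Dusp2 was at 30.7 and 1.37 CPM (log2 ratio -4.49).

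A cell in either culture usually showed only a few of the 10 genes. At 5000 UMIs per cell, which 4464 adherent and 4196 neurosphere cells reached (587 and 80 were too shallow), the median was 3 genes per adherent and 2 per neurosphere cell. None of the 10 had a UMI in 5.98% (5.30 to 6.72) of adherent and 8.48% (7.66 to 9.37) of neurosphere cells (exact binomial 95% intervals). At least 5 were found in 12.4% (11.5 to 13.4) of adherent and 10.3% (9.41 to 11.3) of neurosphere cells. No order of the cultures can be read from this share: with all UMIs it was 33.7% and 40.7%, and with cells thinned to 3000 UMIs it was 3.17% and 4.09%, so that neurosphere cells had the larger share at both of those depths and the smaller one at 5000. In these counts most cells without a UMI of a gene cannot be called non-expressing.

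**Figure D3:**
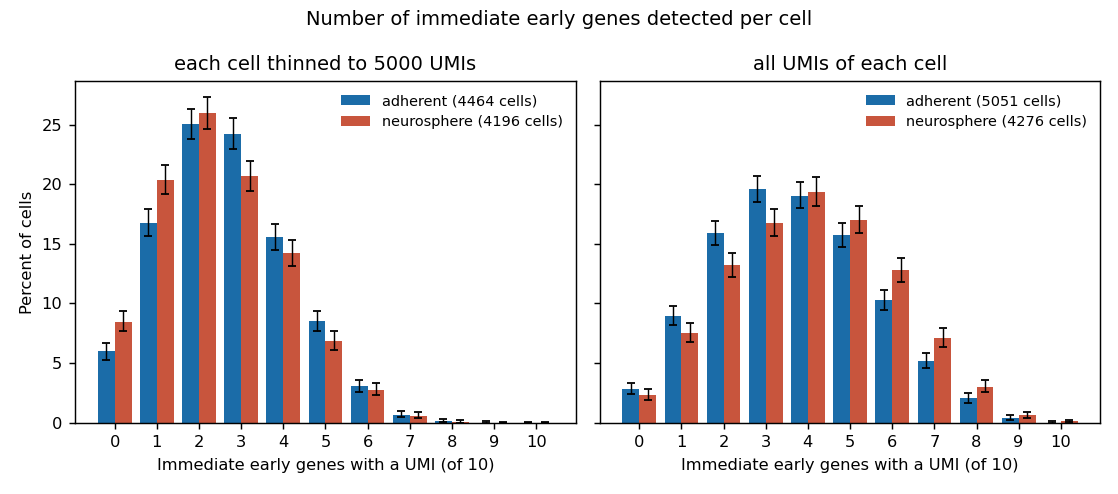
Percent of cells (y axis) with a UMI of 0 to 10 of the genes (x axis), in adherent (blue) and neurosphere (red) cells, with exact 95% binomial intervals. Left, cells thinned to 5000 UMIs, with medians of 3 and 2 genes; right, all UMIs of each cell, where neurosphere bars lie further to the right, as do their medians of UMIs per cell (8260 and 13198.5).

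For the single genes, thinning kept the direction of every share. Fos had a UMI in 32.0% of thinned adherent and 37.7% of thinned neurosphere cells, and Ier2 in 39.2% and 51.2%. Jun had one in fewer adherent (42.03%) than neurosphere (56.3%) cells. Fosb was at 4.14% and 7.13%. The genes that were lower in CPM were also found in fewer thinned neurosphere cells: Junb in 30.7% and 20.9%, Dusp1 in 20.0% and 10.3%, and Fosl1 in 8.83% and 2.26%. No cell type that should lack these genes was present, so the share that free RNA gives could not be measured for them. Ptprc, a leukocyte gene, had 1 adherent and 0 neurosphere UMIs.

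How UMIs were spread over cells differed by gene and by measure. The Fano factor (variance over mean of the thinned UMIs, 1 for random counting) of Fos was 1.70 in adherent and 3.87 in neurosphere cells, that of Egr1 1.64 and 3.69, and that of Atf3 1.57 and 4.11. It was higher in neurosphere cells for 8 of the 10 genes, and lower for Ier3 (2.78 and 1.98) and Dusp1 (1.66 and 1.33). A Fano factor grows with the mean, and the means of Fos and Egr1 were higher in neurosphere cells (0.497 and 0.865 thinned UMIs for Fos), but that of Atf3 was lower (0.286 and 0.128). The share of a gene's thinned UMIs in the 5% of cells richest in it also moves with the mean, in the opposite sense. It was 42.6% in adherent and 79.3% in neurosphere cells for Atf3 and 33.5% and 39.5% for Fos, but 52.4% and 35.1% for Egr1, and 28.9% and 52.8% for Ier3. Both measures were thus higher in neurosphere cells for Fos and Atf3, and they disagreed for Egr1 and Ier3. In single cells, without thinning, the most Fos UMIs were 15 in an adherent and 178 in a neurosphere cell, the most Egr1 UMIs 13 and 98, and the most Atf3 UMIs 21 and 92. The sum of the 10 genes reached 70 UMIs in an adherent and 551 in a neurosphere cell. Leaving out, for each gene, the 1% of cells with the most of its UMIs turned no gene, and leaving out the 1% with the most UMIs of the 10 left the log2 ratio of the sum at 0.03.

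Correlations between the genes are a description across cells that share a library and its depth. Over the 45 pairs, the median Pearson correlation of log UMIs per 10000 was 0.05 over 5051 adherent and 0.12 over 4276 neurosphere cells, with 3 and 8 pairs above 0.2. At 5000 UMIs per cell the median Spearman correlations were 0.037 and 0.052. Depth and statistic both differ from the Pearson medians, so the gap between the cultures cannot be compared across them. The closest neurosphere pairs were Fos with Egr1 (0.43), Egr1 with Ier2 (0.34) and Fos with Fosb (0.29). In adherent cells the same pairs were at 0.18, 0.22 and 0.05, and the closest pair was Junb with Egr1 (0.22). In thinned neurosphere cells, Egr1 was found in 52.8% of cells with a Fos UMI and in 29.1% of those without, against 18.4% and 12.0% in adherent cells. Pairs of low counts correlate weakly whatever their levels, and the neurosphere levels of Fos and Egr1 were higher, so the part of level in these values was not tested. Jun correlated with Fos at 0.22 in neurosphere cells but with Fosl1 at -0.03, and Fosl1 correlated most with Atf3 (0.17), Ier2 (0.16) and Junb (0.16).

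**Figure D4:**
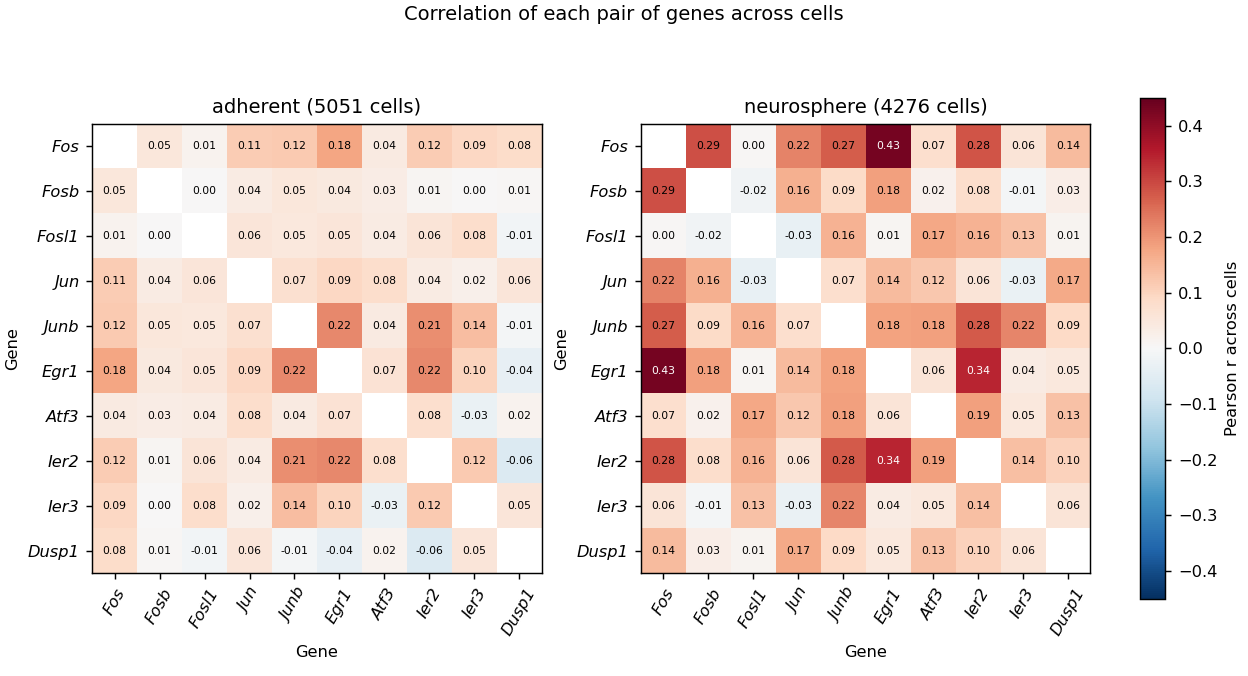
Pearson correlation across cells of log UMIs per 10000 for each of the 45 pairs, in adherent (left, 5051 cells) and neurosphere (right, 4276 cells); the number in each square is the correlation. The darkest squares are Fos with Egr1 (0.43) and Egr1 with Ier2 (0.34) in neurosphere cells, and no adherent pair exceeds 0.22.

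Among genes with a UMI in at least 10% of cells, the 10 most like the sum across cells were taken in each culture. In adherent cells Phlda1, an early gene of growth factor signalling, came first (r = 0.32), ahead of Dusp2 (0.16), Adamts1 (0.16) and Spry2 (0.15). In neurosphere cells Jund (0.29) and Phlda1 (0.27) came first, followed by Zfand5 (0.20) and Adamts1 (0.19). Atf3 was nearest to Ddit3, which encodes the stress factor CHOP, in both cultures (0.21 and 0.31), and its correlation with 9 genes of the integrated stress response was 0.23 and 0.31. Ddit3 itself had 365.4 CPM against 48.4 CPM in the neurosphere library (log2 ratio -2.92). Ier3 was nearest to Tm4sf1, a membrane protein of migrating cells, in both (0.23 and 0.31). Fosl1 was nearest to Zfp703 (0.13) and Hbegf (0.12) in adherent cells and to Tnfrsf12a (0.30) and Plaur (0.25) in neurosphere cells. Jun was nearest to Phlda1 (0.21) and Jund (0.27), Fos to Phlda1 (0.14) and Jund (0.22), and Egr1 to Hmga2 (0.18) and Gm48619 (0.21), in adherent and neurosphere cells in turn.

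Cells were clustered in each library with the 10 genes kept out of the variable genes, giving 10 adherent and 11 neurosphere clusters, which are given by number and by their leading genes. The sum of the 10 genes varied little among adherent clusters, from 746.0 CPM in cluster 0 (led by Ccnf, Aspm and Cenpf, genes of mitosis) to 1094 CPM in cluster 6 (led by Gm43689 and Tex14), a ratio of 1.47 (1.41 to 1.53). Neurosphere clusters ranged from 632.7 CPM in cluster 4 (with Aatk, S100a16 and Tubb4a among its leading genes) to 1448 CPM in cluster 5 (led by Enpp2, Rbms3, Tm4sf1, Serpina3n and Hmox1), a ratio of 2.29 (2.20 to 2.39). Cluster 5 also had the highest median mitochondrial percent of the 11, 5.04, and a median of 8885 UMIs, and their part in its levels was not tested. That ratio was 1.57 at a coarser resolution, with 8 clusters. Clusters are parts of 1 library, so these are descriptions.

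The genes that were lower in neurosphere cells were, within that library, mostly the ones that differed most between clusters. Atf3 ranged from 4.80 CPM in cluster 4 to 116.3 CPM in cluster 5, a 24.2-fold difference, and cluster 5, with 8.35% of the cells, held 24.9% of its UMIs. Ier3 ranged from 18.03 CPM in cluster 1 to 163.1 CPM in cluster 5 (9.05-fold), and Junb from 22.1 CPM in cluster 4 to 172.8 CPM in cluster 5 (7.82-fold). Fosl1 had no UMI in clusters 4 and 9, which allows up to 0.480 and 1.30 CPM (3 counts, the 1-sided 95% limit), and was highest, at 19.5 CPM, in cluster 6, which it led together with Prss56, Fbn2, Phlda2 and Steap3. The cluster 6 level was 40.7-fold the limit of 0.480 CPM in cluster 4, and cluster 6 held 44.6% of the neurosphere Fosl1 UMIs in 8.16% of the cells. Dusp1 was the exception among the lower genes, with a 2.48-fold range from 16.4 to 40.8 CPM.

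The genes that were higher in neurosphere cells were spread more evenly over its clusters than the lower ones other than Dusp1. Fosb ranged from 8.95 CPM in cluster 3 to 30.3 CPM in cluster 1 (3.39-fold), against 8.58 CPM in the whole adherent library. Egr1 ranged from 105.5 CPM in cluster 6 to 190.2 CPM in cluster 7, a 1.80-fold range, so its lowest neurosphere cluster lay above its library-wide adherent level of 36.8 CPM. Fos ranged from 110.0 CPM in cluster 4 to 255.5 CPM in cluster 1 (2.32-fold) and Jun from 146.6 CPM in cluster 3 to 357.7 CPM in cluster 9 (2.44-fold), and cluster 9 had the myelin gene Mbp as its first leading gene. Cluster 1 had the lowest median UMIs of the neurosphere clusters (7620) and a median mitochondrial percent of 4.86, and their part in its Fos level was not tested. Ier2 was lowest in cluster 4, at 87.7 CPM, and highest in cluster 6, at 301.7 CPM (3.44-fold), where Fos was at 111.1 CPM. In adherent cells, Egr1 was highest in cluster 9, at 102.2 CPM, but that cluster held 61 cells with a median of 2850 UMIs and 10.2% mitochondrial UMIs. Among the larger adherent clusters, cluster 6 had the most Egr1 (66.1 CPM), Junb (172.7 CPM) and Ier2 (135.1 CPM), cluster 2 (led by Slc47a1, Mt3 and Mxd4) the most Dusp1 (101.3 CPM) and Atf3 (81.6 CPM), and cluster 3 (led by Gm13889 and Ube2c) the most Ier3 (385.3 CPM). For Ier2, Atf3 and Dusp1 these intervals overlapped those of other adherent clusters. Cluster 1 had Ier2 at 132.4 CPM, and cluster 6 had Atf3 at 80.1 CPM and Dusp1 at 87.7 CPM. Without the cells of neurosphere cluster 5, the log2 ratio was -1.49 for Atf3, -2.75 for Ier3, -0.63 for Junb and 0.01 for the sum.

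**Figure D5:**
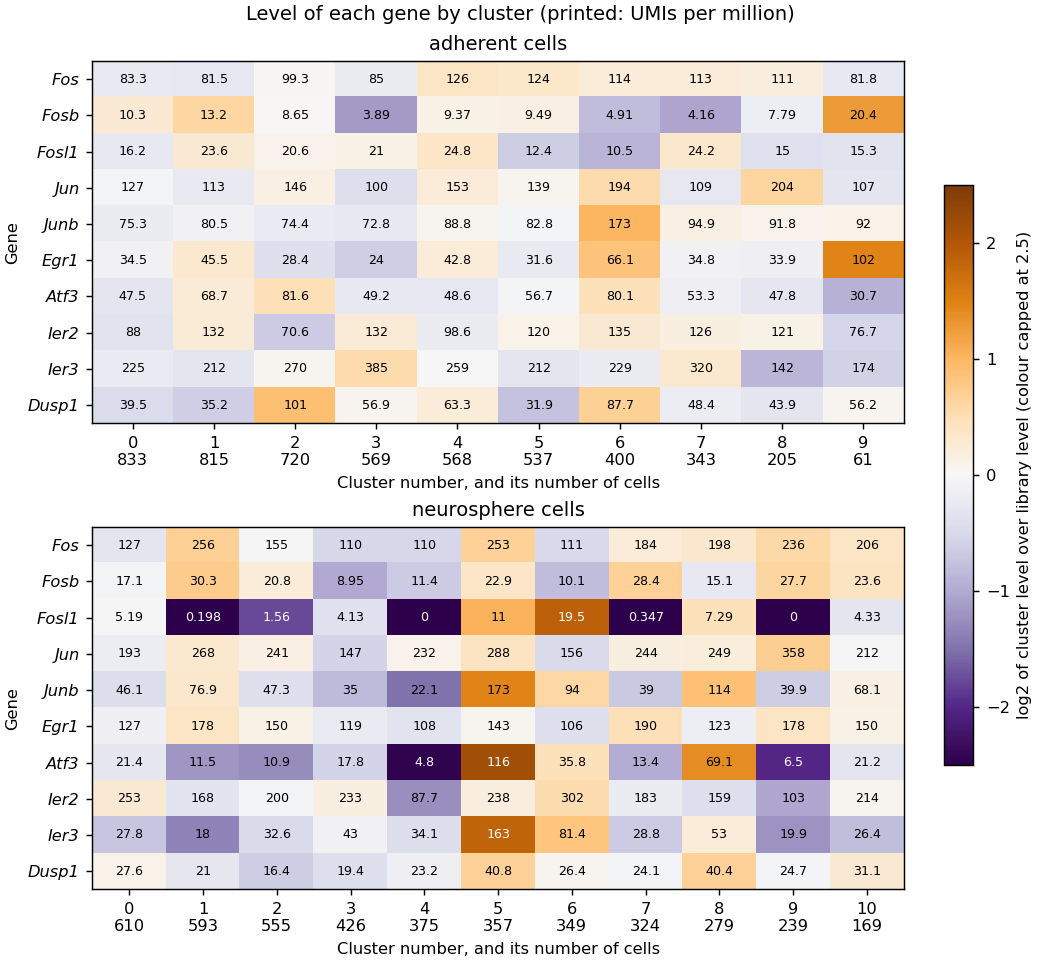
Level of each gene (rows) in each cluster (columns, with the number of cells below) of adherent (top) and neurosphere (bottom) cells; the number in each square is the CPM, and the colour is the log2 of that level over the gene's level in the whole library, capped at 2.5. In neurosphere cells Atf3, Ier3 and Junb are highest in cluster 5 (116.3, 163.1 and 172.8) and Fosl1 in cluster 6 (19.5), while Egr1 lies between 105.5 and 190.2 throughout.

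Other genes of the same pathways are given as counts, to be read against the 21.7% of all genes that were over 2-fold higher and the 11.7% that were over 2-fold lower. Of 37 other immediate early genes with at least 50 UMIs, 11 were over 2-fold higher and 9 over 2-fold lower in neurosphere cells, with a median log2 ratio of 0.08. The higher ones included the orphan receptors Nr4a1 (15.9 and 63.8 CPM) and Nr4a3 (0.518 and 14.6 CPM), the antiproliferative gene Btg2 (32.0 and 184.6 CPM) and Tiparp (73.3 and 351.8 CPM). The lower ones included Hbegf, a ligand of the EGF receptor (324.8 and 32.7 CPM), Klf4 (38.3 and 11.1 CPM) and Plk2 (36.8 and 5.05 CPM). Of 18 other AP-1 and ATF genes, 3 were over 2-fold higher (Jund, Atf2 and Crem) and 2 lower (Jdp2 and Batf3), median 0.15.

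Among upstream genes, of 6 genes of serum response factor, its partners and coactivators, Elk1 (1.10) and Mrtfa (1.05) were over 2-fold higher and Elk3 (-1.72) lower. Of 6 genes that control mRNAs with AU-rich elements, as those of Fos and Ier3 carry, Zfp36 (1.01) and Zfp36l2 (1.76) were over 2-fold higher and none lower. Of 11 ERK feedback genes, Spry1 (1.51) and Etv5 (1.13) were over 2-fold higher and Etv4, Dusp4 and Dusp5 lower.

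Among downstream genes, 6 of 11 AP-1 targets with at least 50 UMIs were over 2-fold lower in neurosphere cells and 1 higher, with a median log2 ratio of -1.18. Timp1, a metalloproteinase inhibitor, was at 605.0 and 82.0 CPM, Plaur, the urokinase receptor, at 90.1 and 16.1 CPM, and Spp1 at 56.9 and 10.3 CPM. Nts, which encodes neurotensin, was the higher one, at 0.259 and 28.2 CPM. Of 9 integrated stress response genes none was over 2-fold higher and 4 were lower (Nupr1, Ddit3, Asns and Trib3), median -0.77.

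Depth and cell quality were compared with the levels of the 10 genes. Across kept cells, the correlation of their sum with the mitochondrial percent was -0.02 in adherent and -0.04 in neurosphere cells, and with UMIs per cell 0.04 and 0.02. Of the single genes, Ier2 in neurosphere cells had the strongest correlation with the mitochondrial percent (-0.17). Median mitochondrial percent was 2.02 in adherent and 3.97 in neurosphere cells. Single genes went opposite ways: from the lowest to the highest quartile of neurosphere cells by mitochondrial percent, Atf3 went from 38.3 to 16.1 CPM and Fosl1 from 8.36 to 3.55 CPM, while Fos went from 139.0 to 199.7 CPM. The part of this in the differences between the cultures was not tested. In the lowest quartile of neurosphere cells by UMIs the sum was at 1040 CPM, and in the highest at 857.3 CPM. In the lowest quartile, Fos was at 218.6 CPM and Egr1 at 177.8 CPM, and in the highest at 131.7 and 119.7 CPM, while Fosl1 went from 2.0 to 7.6 CPM. The cells left out for low quality had the sum at 1309 CPM (1217 to 1405) in the neurosphere library, against 901.8 CPM in kept cells, and at 1025 CPM (927.7 to 1131) in the adherent library, against 863.9 CPM. The 675 neurosphere cells among them had Fos at 295.8 CPM (253.0 to 343.8) and Ier3 at 102.7 CPM (78.2 to 132.4), above the 157.6 and 45.6 CPM of the kept cells. Of 8 heat shock genes with at least 50 UMIs none was over 2-fold higher and 2 were lower (Hsp90aa1 and Hspe1), with a median log2 ratio of -0.27 and a sum of 9648 CPM in the adherent and 6159 CPM in the neurosphere library. Hspa1a and Hspa1b, near-identical copies between which reads are not assigned with certainty, had 1 and 0 UMIs in adherent and 0 and 0 in neurosphere cells.

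Markers of other cell types were checked in the same libraries. Of 6 immune genes, Ptprc, Cd3e and Aif1 had 3 adherent UMIs in all and 1 neurosphere UMI. Of the list, 2 had at least 50 UMIs, Cd68 (10.5 and 4.25 CPM) and Lyz2 (2.57 and 0.524 CPM), both over 2-fold lower in neurosphere cells, and the list summed to 13.6 and 5.17 CPM. Of 3 endothelial genes, Cdh5 had no UMI in either library, Pecam1 was over 2-fold higher in neurosphere cells (1.32 and 3.20 CPM), and the list summed to 1.32 and 3.23 CPM. The 3 stromal genes summed to 9.14 and 389.4 CPM, since Col1a1 was at 2.51 and 329.0 CPM and Dcn at 0.0216 and 55.5 CPM, and Col1a1 had a UMI in 69.8% of neurosphere cells. Pdgfra, the third of them, went the other way, with a log2 ratio of -0.44. The part of cells with Col1a1 or Dcn in the differences above was not tested. The labels name no other cell type, and 12 barcodes were called in both libraries, of which 9 were kept in each. Leaving those cells out gave the same log2 ratio of the sum, 0.06.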

How the data were processed

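Single-cell RNA was counted in 1 adherent and 1 neurosphere GL261 library. The authors deposited raw UMI counts per gene and cell; the submitters' processing notes name Cell Ranger 7.0.1 and mm10. The annotation and the intron and strand settings are not given in the sources used here. As in the study's methods, 13 mitochondrial and 101 ribosomal genes (symbols beginning Rps or Rpl, which takes 2 S6 kinase genes with them) and cells under 1000 UMIs, or under 1250 (adherent) or 2250 (neurosphere) genes, were left out. Genes were removed before cells were filtered, which keeps 5051 and 4276 cells; the reverse order, tried as an alternative, keeps 5073 and 4300, the cell numbers the study gives. No doublet caller was run. CPM, exact Poisson, exact conditional (ratio) and exact binomial intervals at 95%, and thinning of cells without replacement were computed in Python 3.11.15 (numpy 2.4.6, scipy 1.17.1, pandas 2.3.3), and clusters in R 4.3.3 with Seurat 5.3.0 (2000 variable genes, 17 and 18 components, resolution 1.0). Intervals were tested on simulated counts drawn from the Poisson model that they assume. That check could not cover spread between cells beyond counting error. edgeR 4.0.16 gave TMM factors and DESeq2 1.42.0 size factors, with no model test. The trend on gene length used statsmodels 0.14.6. Depth was 46290996 and 64943938 UMIs.

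Genes and lists were chosen with earlier results of these data known. All 10 genes are given; a listed gene was named with values only past 2-fold with at least 500 UMIs. Exceptions, named after their values were seen, are Batf3, Dusp4, Dusp5, Hspa1a, Hspa1b and genes that check cell types. Likeness was the Pearson correlation of log(1 + UMIs per 10000). Gene positions are GENCODE annotation on GRCm38. The result of 1 gene list and the names of some leading genes of clusters are not reported here.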

Additional observations from a re-analysis of the deposited data

How the results depend on the processing

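No paired analysis was possible because each culture has 1 library. All 10 genes kept the sign of their log2 ratio under 15 alternative settings, of which 2 (shared barcodes and neurosphere cluster 5 left out) were chosen after seeing the data. Settings that only rescale the totals shift every gene by less than the smallest ratio of the 10, so these could turn no sign. The genes nearest 2-fold moved across it: Fosb ranged from 0.76 to 1.28, Atf3 from -1.60 to -0.94, Dusp1 from -1.38 to -0.87 and Ier2 from 0.60 to 1.17. Those over 2-fold higher numbered 2, but 1 under TMM and 1 under median-of-ratios scaling, and 3 (with Ier2) on the total that includes mitochondrial and ribosomal UMIs and with the gene length trend removed, and those over 2-fold lower numbered 4, but 2 on that larger total. The log2 ratio of the sum reversed to -0.24 under TMM and -0.19 under median-of-ratios scaling, by construction, since each shifts every gene alike. It was 0.28 on that larger total, 0.25 with the gene length trend removed, 0.12 with cells thinned, 0.10 as a mean over cells, 0.093 without cells over the 95th percentile of UMIs, 0.031 without the 1% of cells with the most UMIs of the 10 genes and 0.0093 without neurosphere cluster 5 (the cause was not tested). The share of cells with at least 5 genes was 3.17% adherent and 4.09% neurosphere at 3000 UMIs, and 33.7% and 40.7% without thinning. The cells that reach each depth also differ, and the cause was not tested. The ratio between neurosphere clusters was 1.57 at resolution 0.8, where fewer clusters were made. With 1 library a culture, no setting measures the spread between cultures.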
